A study of Mus musculus with 4 samples.

Results

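The genes described here encode the proteins of the cytosolic ribosome. They were chosen by symbol alone: a gene was taken if its mouse symbol was Rpl or Rps followed by a number with at most 1 closing a or x, or was Rplp0, Rplp1, Rplp2 or Rpsa. Of 76 symbols that match, 75 had a named probe on the array (45 of the large and 30 of the small subunit), among 20956 named genes in all, and Rpl37 had none. Each gene was read from the brightest of its probes. Total RNA came from 3T3-L1 cells, a mouse preadipocyte line, and was hybridised with the dye Cy3 to 4 Agilent mouse arrays. The 4 cultures were control cells at confluence (day 0), cells labelled lamp2a- at day 0, control cells 2 days into adipocyte differentiation, and lamp2a- cells 2 days into it. Both day 2 cultures had received 160 nM insulin, 250 nM dexamethasone and 0.5 mM isobutylmethylxanthine in medium with 10% serum, and both day 0 cultures were collected before induction. The series describes the lamp2a- cells as knocked down for the Lamp2a form of a lysosomal membrane protein. The sources used here give neither the way the knockdown was made nor how many clones it involved. There was 1 array per group, so no difference below has a replicate check and none was given a p-value.

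A ribosome holds 1 copy of nearly every one of these proteins, and cells make them in close proportion to each other. Their mRNAs are among the most abundant in growing cells, and most begin with a C followed by a run of pyrimidines, the 5′ terminal oligopyrimidine (TOP) tract, through which the kinase mTOR and the RNA-binding protein LARP1 control their translation. Insulin, one of the inducers of adipogenesis, acts upstream of mTOR. Several of the genes, among them Rplp0, Rpl13a, Rps18, Rpl32 and Rps29, are widely used as reference genes in studies of fat cells. The family also has many processed pseudogenes, near-identical copies in the genome, so which copy a probe reads is uncertain.

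The arrays differed as a whole. The share of spots well above background was 67.4% on the control day 0 array and 78.7% to 88.6% on the others, and the 75th percentile of spot signal ranged from 1103 to 1665. The control day 0 array was alone on slide 1 and the other 3 shared slide 2. In any comparison with that array, the effects of slide and of group cannot be told apart. Its values were also deposited with 3 significant digits. A Lamp2 probe listed under the transcript NM_001017959 was lower in the lamp2a- cells, by 4.13-fold before induction and by 3.51-fold after it, and a probe listed under another Lamp2 transcript was 1.29-fold and 1.08-fold lower. Of 12 preadipocyte or fibroblast markers, 11 or 12 were well above background on each array, with median signals from 46964 to 101498. Of 7 adipocyte markers 6 or 7 were, but with medians of only 72 to 381. The brightest of the 7 read from 50730 to 87700, depending on the array. The medians of 4 leukocyte and 3 skeletal muscle markers were similar, from 61.3 to 332, but the brightest of these markers read at most 2114. All 4 leukocyte and 2 or 3 of the 3 muscle markers were well above background on each array. The 4 epithelial and 3 endothelial markers had median signals of at most 59.8. The part of any of these cell types in the results below was not tested. In RNA from whole cultures, fewer cells of a kind and less RNA per cell cannot be told apart.

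All 75 ribosomal protein genes were well above background on all 4 arrays, and no spot of theirs was saturated. Their signals ranged from 81200 to 447000 on the control day 0 array, from 100162 to 494051 on knockdown day 0, from 93286 to 487913 on control day 2 and from 80990 to 445329 on knockdown day 2. The median signal was 282000, 316912, 324138 and 306801 on those arrays in the same order, so before any scaling the 4 medians lay close together and the control day 0 array was lowest. The probes were among the brightest on each array: the median member stood at percentile 99.6 or 99.7 of all genes. These 75 brightest probes, each counted once and without the genes' other probes, came to 4.95% of the summed signal on control day 0. They came to 5.05% on knockdown day 0, 5.85% on control day 2 and 5.91% on knockdown day 2. The share was thus higher on both day 2 arrays than on either day 0 array, and nearly the same in control and knockdown cells of a day.

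To compare arrays, a level was computed for each gene as the log2 of its processed signal minus the log2 of the array's 75th percentile over 59305 non-control spots. On this scale the members' median level was 7.47 on control day 0, 7.57 on knockdown day 0, 8.03 on control day 2 and 8.12 on knockdown day 2. Large and small subunit genes had like medians on each array, 7.46 and 7.52 on control day 0 and 8.10 and 8.17 on knockdown day 2. A difference between 2 arrays on this scale is a log2 ratio. The measure of error used here is the scatter between repeat spots of a probe on an array. For 14 bright probes it gave an SD of the log2 ratio of 0.03 to 0.06, depending on the comparison. This scatter covers spot to spot error and says nothing of the spread between cultures, labellings or arrays. Different probes of a gene scattered more: the 86 other probes of members differed from the brightest with an SD of 0.17 to 0.35.

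**Figure D1:**
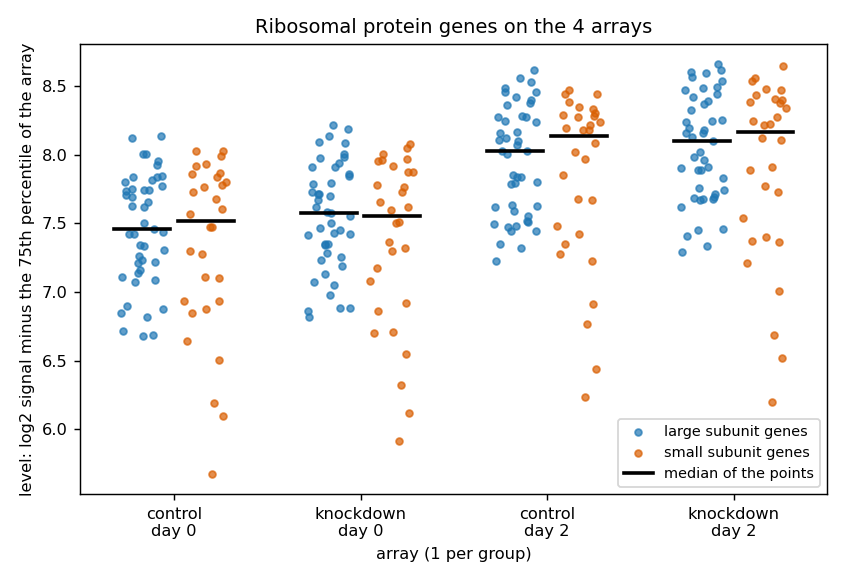
Level of each of the 75 ribosomal protein genes (log2 signal minus the log2 75th percentile of the array, vertical axis) on the 4 arrays (1 per group, horizontal axis), with large subunit genes in blue, small subunit genes in orange and black lines at the median of each set of points. Both day 2 sets sit higher than both day 0 sets, with member medians of 8.03 and 8.12 against 7.47 and 7.57, on this scaling.

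The pyrimidine tract that names the TOP class can be read at the listed transcript starts. RefSeq starts (build GRCm38.p6) were found for 55 of the members, 65 starts in all. The windows below run from 15 bases before to 15 bases after the start, 5′ to 3′ on the gene's strand, and capitals mark an unbroken pyrimidine tract that begins with C at the listed start. They are shown because the genes include the highest and the lowest member of the control time course (Rpl28 and Rpl38), the member with the longest tract (Rpl15), and Rps6, Rps18, Rps27 and Rplp2, which are described below. Rpl27a, the highest member of the knockdown time course, has pyrimidines around its listed start but no C at it, and so no capitals.
Rpl28, chr7:4792950-4792979, plus strand: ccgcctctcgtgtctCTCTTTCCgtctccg
Rpl38, chr11:114668565-114668594, plus strand: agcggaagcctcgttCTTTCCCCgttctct
Rpl15, chr14:18270972-18271001, minus strand: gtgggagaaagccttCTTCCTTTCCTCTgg
Rps6, chr4:86857353-86857382, minus strand: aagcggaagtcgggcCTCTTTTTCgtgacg
Rps18, chr17:33955651-33955680, minus strand: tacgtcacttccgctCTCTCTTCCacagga
Rps27, chr3:90213634-90213663, minus strand: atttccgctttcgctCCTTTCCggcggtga
Rplp2, chr7:141447636-141447665, plus strand: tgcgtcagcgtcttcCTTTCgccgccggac
Rpl27a, chr7:109519180-109519209, plus strand: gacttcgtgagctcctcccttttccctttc

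A C followed by at least 4 pyrimidines stood exactly at 20% of the 65 member starts, against 2.51% of all 32851 listed starts, and within 5 bases of 44.6% against 18.3%. Searched on both strands over the 250 bases before and 50 after each start, CCGGAAG, the core bound by ETS factors such as GABPA, was in 35.4% of member windows and 8.86% of all. AAGATGGC, a core bound by YY1, in 10.8% against 2.75%, GGGCGG, the GC box, in 60% against 35.7%, and CACGTG, the E-box bound by MYC and MAX, in 12.3% against 7.15%. TATAAA was in 9.23% of member windows and 13.6% of all. The search counted each motif separately, whatever it overlapped, and a match of letters is a description of the sequence, not a bound site. Members with and without the tract at the listed start had nearly the same values on the arrays. In the control time course the median log2 ratio was 0.47 for the 13 with it and 0.51 for the 42 without, and in the knockdown time course 0.48 and 0.49. This split rests on the exact listed base. Within 5 bases of a listed start, 27 genes had such a tract, and Rpl27a is counted among those without. The split therefore does not separate TOP mRNAs from others, and the near equality says nothing of the tract.

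At day 0 the ribosomal protein genes were, gene by gene, close to equal in knockdown and control cells. Their median log2 ratio, knockdown minus control, was 0.08 (1.06-fold), against 0.12 for all 19270 genes compared, and the sign of the member median depended on the scaling: it was above 0 under 8 of 11 scalings and below 0 under 3. Single genes lay between -0.23 and 0.31, with an SD over members of 0.10 where all genes had 0.88. Every member stood at percentile 97.75 or above in brightness on each array, so nearly all genes compared were dimmer. The spreads and shares of all genes here and below are thus not those of equally bright genes, which were not computed. Over dimmer probes of the members, of mean level 0 to 6, the SD at day 0 was 0.28. No member was past 2-fold in either direction, while 18.4% of all genes were past it upward and 4.2% downward. At 1.5-fold the members again numbered 0, against 29.2% and 8.95% of all genes.

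Rpl5, which with Rpl11 and the 5S rRNA forms a particle of the large subunit that also binds MDM2, had the highest ratio. Its levels were 7.11 on control day 0, 7.42 on knockdown day 0, 7.62 on control day 2 and 7.90 on knockdown day 2, so it was higher in knockdown than in control cells on both days. The log2 ratios were 0.31 at day 0 and 0.29 at day 2, the highest of the 75 in each, whereas its partner Rpl11 had 0.08 and 0.08. Rpl36a, a protein of the tRNA exit site, had levels of 6.68, 6.98, 7.48 and 7.67 on the same 4 arrays in that order and a log2 ratio of 0.30 at day 0. Rpl23a, which lines the tunnel exit where the signal recognition particle docks, had 7.34, 7.58, 7.85 and 8.02, with a ratio of 0.24. Both were higher in knockdown than in control cells on each day. These ratios and those of Rpl5 were smaller than the SD of all genes.

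At the low end at day 0 stood Rpl38, a small surface protein known for its role in translating Hox mRNAs in mouse embryos. Its levels were 7.65 on control day 0, 7.43 on knockdown day 0, 7.84 on control day 2 and 7.91 on knockdown day 2, and it was the lowest member at day 0 with a log2 ratio of -0.23. That low value was not shared by its other probe, of mean level 7.55 against 7.71, which read -0.02 at day 0. Rps23, a protein of the decoding centre, had -0.17, with levels of 7.76, 7.59, 8.27 and 8.21. On both genes the knockdown day 0 array was the lowest of the 4. The large subunit genes had a median of 0.11 and the small subunit genes 0.05, a gap smaller than the SD within either set (0.10 in both). Of 75 members 55 lay within 0.1 of the member median and 6 were more than 0.2 from it.

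At day 2 the members were still closer together. The median log2 ratio, knockdown minus control, was 0.08, against -0.00 for all 18561 genes compared, and it was above 0 under 7 scalings and below 0 under 4. Members ranged from -0.08 to 0.29 with an SD of 0.07, where all genes had 0.62. None was past 2-fold, against 2.89% of all genes upward and 4.1% downward. Neither was any past 1.5-fold, which 8.02% and 9.21% of all genes were. Compared with the member median, 58 genes lay within 0.1 and 1, Rpl5, was more than 0.2 away.

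After Rpl5 the highest at day 2 were Rps27, a zinc finger protein of the small subunit, and Rpl21, a large subunit protein. Rps27 had levels of 7.68 on control day 0, 7.73 on knockdown day 0, 8.18 on control day 2 and 8.41 on knockdown day 2, and a log2 ratio of 0.22. Rpl21 had 7.07, 7.23, 7.47 and 7.69, also a ratio of 0.22. The lowest were 3 small subunit genes: Rps15, a protein of the decoding region, at -0.08, Rps19, the gene most often mutated in Diamond-Blackfan anaemia, at -0.07, and Rps23 at -0.06. Rps15 had levels of 6.19, 6.32, 6.77 and 6.69, and Rps19 6.64, 6.70, 7.28 and 7.21. Both were thus slightly higher in knockdown cells at day 0 and slightly lower at day 2, by amounts of 0.06 to 0.14 on the log2 scale. The large subunit genes had a median of 0.08 and the small subunit genes 0.06.

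**Figure D2:**
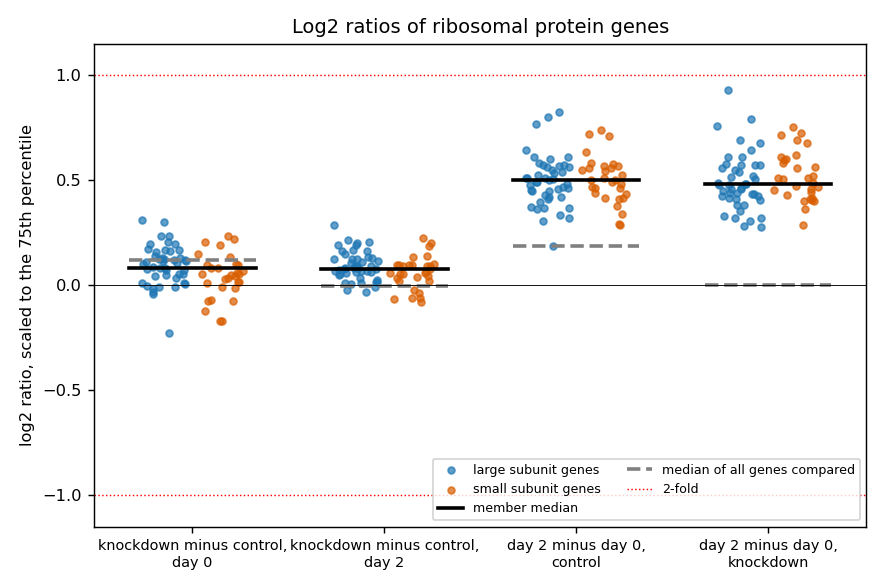
Log2 ratio of each of the 75 genes (vertical axis, scaled to the 75th percentile) in the 4 comparisons (horizontal axis), large subunit genes in blue and small subunit genes in orange, with the member median in black, the median of all genes compared as a dashed grey line and 2-fold as dotted red lines. No point reaches 2-fold; the member medians are 0.08, 0.08, 0.50 and 0.48, and under other scalings their sign changes in every comparison, in the control time course under 1 of 11.

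Over 2 days of differentiation the control cells had a higher level of every ribosomal protein gene on the 75th percentile scaling. The median log2 ratio, day 2 minus day 0, was 0.50 (1.41-fold), against 0.19 for all 18657 genes compared, and it stayed above 0 under 10 scalings and was -0.27 when arrays were scaled to their median spot. Members ranged from 0.19 to 0.83 with an SD of 0.12, against 1.04 for all genes. None reached 2-fold, which 20% of all genes did upward and 8.15% downward. At 1.5-fold 11 members were higher and 0 lower, that is 11 of 75 against 31.6% of all genes higher and 14.5% lower. This comparison uses the control day 0 array, and so slide and day cannot be told apart in it.

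Rpl28, a large subunit protein found in eukaryotes and not in bacteria, was highest. Its signals were 164000 on control day 0, 196963 on knockdown day 0, 226621 on control day 2 and 225983 on knockdown day 2, so it was lowest on control day 0 even before scaling. The levels were 6.69, 6.89, 7.51 and 7.68, which gave a log2 ratio of 0.83 in control cells and 0.79 in knockdown cells. Rpl36a followed with 0.80 in control cells and 0.69 in knockdown cells. Rpl27a, another large subunit protein, had levels of 7.69, 7.67, 8.46 and 8.60 and ratios of 0.77 and 0.93, the latter the highest of all members in knockdown cells. Both day 2 arrays were above both day 0 arrays for each of these 3 genes.

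Among the smallest day 2 ratios in control cells were those of Rpl38, at 0.19, and Rps27a, at 0.29. The other Rpl38 probe read 0.34. Rps27a encodes a fusion of ubiquitin and a small subunit protein, and had levels of 7.99 on control day 0, 8.05 on knockdown day 0, 8.28 on control day 2 and 8.47 on knockdown day 2. Each day 2 array was above each day 0 array, as it was for Rpl38. In unscaled signal this order did not hold: Rpl38 read 320000 on control day 0 and 286619, 284021 and 265303 on the others, so that control day 0 was its highest array. On its other probe knockdown day 0 was highest, at 273053 against 265000 on control day 0.

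The knockdown time course, measured on 2 arrays of slide 2, gave much the same values. Its median log2 ratio was 0.48 (1.40-fold), against 0.00 for all 19198 genes compared. This median was above 0 under 9 scalings and below 0 under 2, at -0.24 with spike-in scaling and -0.11 with none. Members lay between 0.28 and 0.93, with an SD of 0.13 against 0.85 for all genes. None reached 2-fold, against 5.01% of all genes higher and 9.07% lower. At 1.5-fold 17 of 75 were higher and 0 lower, against 13% and 16.3% of all genes.

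Next to Rpl27a and Rpl28 the highest member was Rpl18, a large subunit protein, with levels of 6.85 on control day 0, 6.86 on knockdown day 0, 7.49 on control day 2 and 7.62 on knockdown day 2. Its log2 ratio was 0.76 in knockdown and 0.65 in control cells. The lowest were Rpl36 at 0.28, Rpl4 at 0.28 and Rps3 at 0.29. Rpl4 reaches into the exit tunnel, and Rps3 sits at the mRNA entry and also acts in DNA repair. Rpl36 had levels of 7.43, 7.55, 7.80 and 7.83, Rpl4 6.81, 7.05, 7.32 and 7.33, and Rps3 5.67, 5.91, 6.23 and 6.20. In all 3, both day 2 arrays were above both day 0 arrays and the 2 day 2 arrays differed by about 0.03 or less.

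The members kept much of their order between the time courses, which share no array. Across the 75 genes the ratios correlated with Pearson's r of 0.62 and Spearman's rho of 0.54, and 51 were on the same side of the member median in both. Rps9 and Rpsa were high in both, with 0.74 and 0.76 for Rps9 and 0.71 and 0.73 for Rpsa, and Rpl30 was low in both, at 0.32 and 0.32. These points share their probes and their labelling chemistry, and genes are not independent replicates, so no p is given. The knockdown ratios of day 0 and day 2 went together less closely, with r of 0.29 and rho of 0.21 and 43 on the same side. The mean level of a member had little relation to its ratios, with r between -0.15 and 0.19 over the 4 comparisons.

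**Figure D3:**
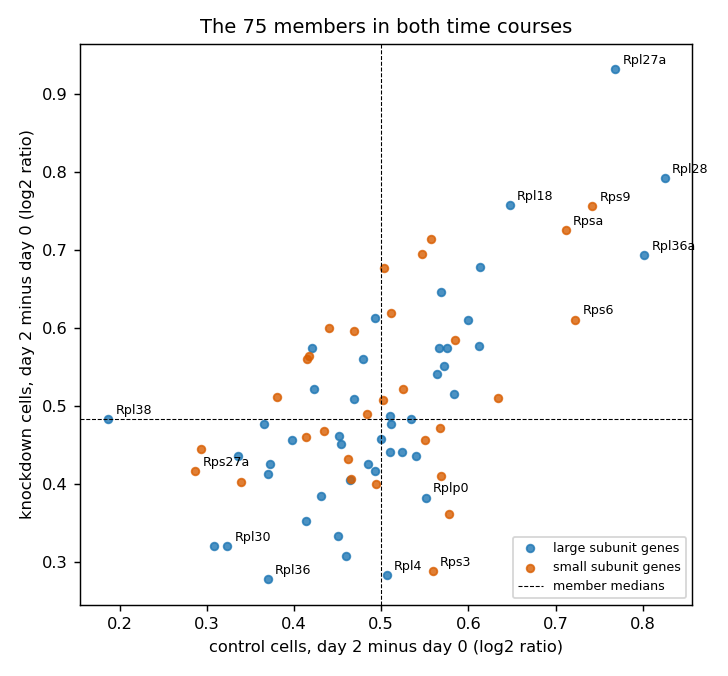
Log2 ratio of each of the 75 genes, day 2 minus day 0, in control cells (horizontal axis) and in knockdown cells (vertical axis), large subunit in blue and small subunit in orange, with dashed lines at the member medians of 0.50 and 0.48. Every point is above 0 on both axes on the 75th percentile scaling, though the medians turn below 0 under 1 and 2 of the 11 scalings; Rpl27a and Rpl28 are highest, Rpl38 is lowest in control cells and Rpl36 in knockdown cells.

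By place in the ribosome, small groups of members differed little. The stalk proteins Rplp0, Rplp1 and Rplp2, which recruit elongation factors, had median log2 ratios of 0.49 in the control and 0.51 in the knockdown time course. Rplp0 had levels of 8.01 on control day 0, 8.21 on knockdown day 0, 8.56 on control day 2 and 8.59 on knockdown day 2. Rplp1 had 7.75, 7.71, 8.25 and 8.32, and Rplp2 7.93, 7.98, 8.40 and 8.49. The stalk genes thus stood higher on both day 2 arrays, and Rplp0 alone of the 3 was higher in knockdown cells at day 0 by more than 0.1, at 0.21.

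The 4 proteins around the peptidyl transferase centre, Rpl3, Rpl4, Rpl8 and Rpl10, had medians of 0.52 and 0.42 in the time courses, and 0.15 and 0.08 for knockdown minus control at day 0 and day 2. The 7 genes of the tunnel exit had 0.51 and 0.48 in the time courses and 0.07 and 0.11 between the cell groups. On the small subunit, the 4 genes of mRNA entry and decoding (Rps2, Rps3, Rps15 and Rps23) had time course medians of 0.54 and 0.43, and -0.05 for knockdown minus control at day 2, where their values ran from -0.08 to 0.02. The 5 genes of the mRNA exit had 0.47 and 0.43. Each of these medians lay within 0.15 of that of all 75 members.

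The genes used as references were themselves part of the shift. Rpl13a had levels of 7.26 on control day 0, 7.35 on knockdown day 0, 7.63 on control day 2 and 7.76 on knockdown day 2, and Rps18 6.85, 6.86, 7.35 and 7.37. Rpl32 had 7.81, 7.94, 8.27 and 8.24, and Rps29 7.73, 7.65, 8.20 and 8.25. Between the cell groups of a day, their log2 ratios lay between -0.08 and 0.13, and that of Rplp0 reached 0.21. Between the days they lay between 0.31 and 0.60, on a scaling whose choice can move all of them together. Rps6, whose phosphorylation is a common readout of mTOR activity, had levels of 7.57, 7.78, 8.29 and 8.39 and time course ratios of 0.72 and 0.61. Rpsa, also known as a laminin receptor precursor, had signals of 282000, 301190, 360255 and 329888 on the same arrays, and stood higher on both day 2 arrays before scaling as well.

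How arrays are put on a common scale decided the size, and in part the sign, of the members' median. Scaling an array by 1 constant cannot alter the spread between members. Under quantile normalization and cyclic loess, which can, its SD was 0.13 and 0.13 in the control time course, against 0.12. The shift of the control time course ran from -0.27 with each array's median spot as reference to 0.56 with the 75th percentile taken over the probes detected on all arrays. With no scaling it was 0.14, with the spike-in spots 0.18, with the summed signal 0.24, with the mean level of 19 reference genes outside the family 0.30, with cyclic loess 0.21 and with quantile normalization 0.04. That of the knockdown time course ran from -0.24 with the spike-in spots to 1.17 with the median level of the reference genes, under which 71 of 75 members were past 2-fold, as were 25.5% of all genes. The reference genes' median level was that of Pgk1 on control day 0, of B2m on knockdown day 0 and control day 2, and of Nono on knockdown day 2, so it compared different genes. With the other 10 scalings the knockdown time course reached at most 0.55.

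The knockdown minus control median at day 0 ran from -0.70 with the median spot, where 1 member was past 2-fold lower (23.2% of all genes), to 0.30 with the spike-in spots. At day 2 it ran from -0.10 with the spike-in spots to 0.39 with the reference genes' median level, and to 0.13 without that setting. The 7 spike-in probes used, with 35 spots each, differed between the cell groups at day 2 by -0.06 to 0.06 in unscaled log2 signal and between the days in control cells by -0.08 to -0.00. At day 0 they were lower on the knockdown array by 0.07 to 0.24, and in the knockdown time course higher at day 2 by 0.03 to 0.19. The sources used here do not say how much spike-in RNA was added per amount of sample RNA.

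The all-gene median moved with the scaling too. A constant per array moves members and all genes alike, except that a ratio entered as a bound was not let past 0. The distance between them therefore still varied under the 9 scalings of this kind. For knockdown minus control at day 0 it was -0.04 on the 75th percentile and -0.15 with the median spot. Quantile normalization and cyclic loess can also change it for genes measured on both arrays. In the control time course all genes had medians from -0.51 with the median spot to 0.25 with the detected probes, and the members exceeded them by 0.31 on the 75th percentile, by 0.24 with the median spot, the spike-in spots, the summed signal or no scaling, by 0.21 with cyclic loess and by 0.04 with quantile normalization. In the knockdown time course the excess was 0.48 on the 75th percentile, 0.51 with the median spot, 0.16 with cyclic loess and 0.05 with quantile normalization. Quantile normalization gives each rank the same value on every array. The median member stood at percentile 99.6 or 99.7 of all genes on each array. The small excess under that setting thus follows largely from the method, and nothing is concluded from it. Between the cell groups it was -0.04 at day 0 and 0.08 at day 2 on the 75th percentile, and ranged from -0.15 to 0.06 and from -0.00 to 0.09.

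**Figure D4:**
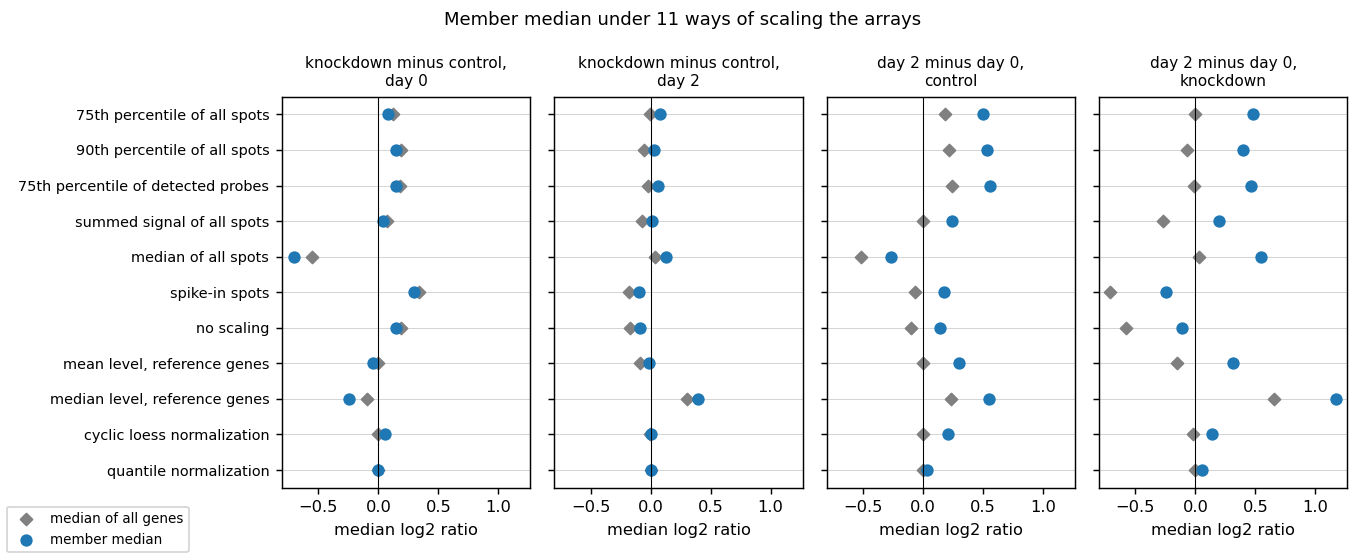
Median log2 ratio (horizontal axis) of the 75 genes (blue circles) and of all genes compared (grey diamonds) under 11 ways of scaling the arrays (vertical axis), 1 panel per comparison. The members' median crosses 0 in every panel; in the time courses the members exceed all genes by 0.31 and 0.48 on the 75th percentile, and by 0.04 and 0.05 after quantile normalization. Scalings by a constant move both symbols mostly together, though not always by the same amount. Quantile normalization by its method holds genes that keep the top ranks near 0.

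Bright genes outside the family had larger time course differences than those of middle brightness as well. Of genes outside the family, the 12 with a mean level over 8 had median log2 ratios of 0.42 in control and 0.50 in knockdown cells, where the 31 member probes of that brightness had 0.47 and 0.51. From level 7.5 to 8, 38 other genes had 0.37 and 0.38 and 39 member probes 0.49 and 0.48. Between levels 3 and 5, in contrast, 2343 other genes had -0.00 and 0.14. Between levels 5 and 6, 10 member probes had 0.69 and 0.56 and 505 other genes 0.08 and 0.17, and between 6 and 7, 24 member probes had 0.53 and 0.45 and 177 other genes 0.16 and 0.16. From level 7 to 7.5, 39 member probes had 0.49 and 0.46 and 40 other genes 0.41 and 0.34. The members' shift on this scaling was thus close to that of other genes in the classes above 7 and larger than theirs in the classes from 5 to 7. The relation was not a steady rise: below level 0, 7104 other genes had 0.49 in control and -0.06 in knockdown cells. The part of brightness in the result was not tested.

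Probes of the same genes with levels between 3 and 6 mostly read larger differences than brighter ones. The 75 genes had 161 probes, 51 genes having more than 1 and up to 7. Those of Rpl15, Rpl22, Rpl31 and Rps6 between levels 3 and 5, 4 probes in all, had time course medians of 1.03 and 1.05, and 10 probes between levels 5 and 6 had 0.69 and 0.56. The dimmest of 3 Rps6 probes read 12500 on control day 0, 16374 on knockdown day 0, 20381 on control day 2 and 21187 on knockdown day 2, with log2 ratios of 1.06 and 0.97, against 0.72 and 0.61 on the brightest probe and 0.60 and 0.55 on the one between them in brightness. All 3 probes gave higher levels at day 2. Rpl13a was read at 0.37 and 0.41 by its brightest probe and at 1.11 and 1.14 and at 1.03 and 1.02 by its other probes. Rpl27a had 0.77 and 0.93 on its brightest probe and 1.24 and 1.49 on the dimmest, while the probe between them had 0.72 and 0.89.

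Over the 86 probes that were not the brightest of their gene, 10 were past 2-fold higher in the control time course and 7 in the knockdown time course, and 1 was past it lower in the latter. Their median difference from the brightest probe was nonetheless 0.03 and -0.01. Over the 22 probes with mean levels between 0 and 6, which belong to 18 genes, the median was 0.74 in the control and 0.56 in the knockdown time course, against -0.01 and 0.12 for 8019 other genes of those levels. In some genes a dim probe went the other way in the knockdown time course. That of Rpl30 read -0.43 against 0.32 on the brightest probe, and that of Rps27a -0.65 against 0.42. Whether these probes read the named gene, a pseudogene copy or another transcript form was not tested.

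**Figure D5:**
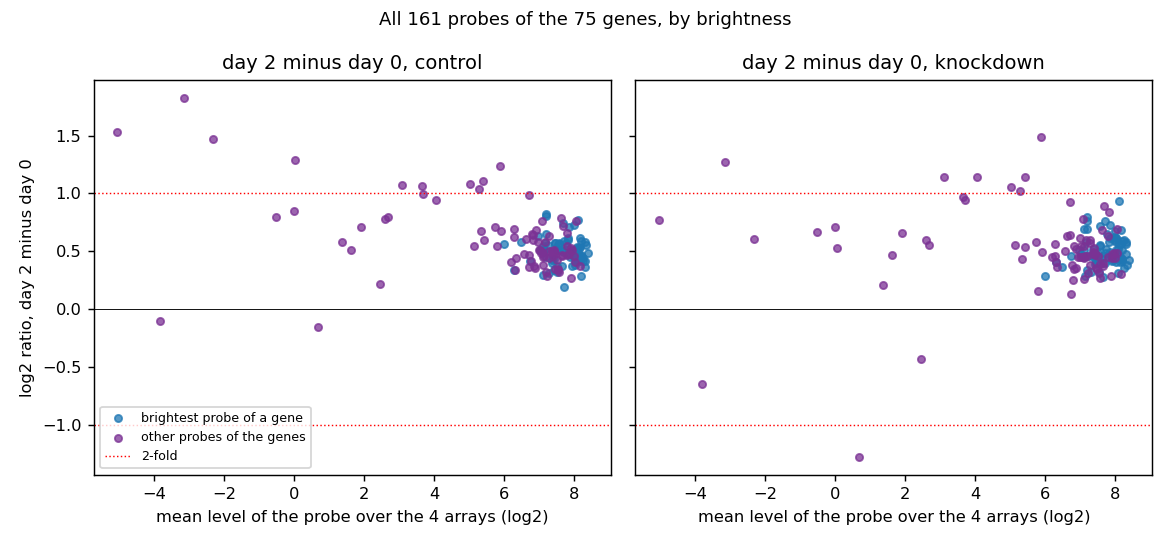
Log2 ratio, day 2 minus day 0 (vertical axis), of all 161 probes of the 75 genes against their mean level over the 4 arrays (log2, horizontal axis), in control cells (left) and knockdown cells (right), the brightest probe of each gene in blue and the others in purple, with dotted red lines at 2-fold. The brightest probes lie in a band between 0.19 and 0.93, while probes of mean level 3 to 5 lie between 0.94 and 1.14.

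Of the ribosomal proteins, fusions and paralogs that the symbol rule leaves out, 11 could be compared, with time course medians of 0.29 and 0.00 and with 9 and 5 of the 11 above 0. Rps3a1, a small subunit protein, read 166000 on control day 0, 214662 on knockdown day 0, 175034 on control day 2 and 195675 on knockdown day 2, and its time course log2 ratios were 0.44 and 0.46. Fau, which encodes a fusion of a ubiquitin-like protein with a ribosomal protein, had 0.42 and 0.44. Among the paralogs, Rps27l, a target of p53, read 95100, 98743, 78605 and 52114 and had 0.08 and -0.33, and its ratio between the cell groups at day 2 was -0.42, where Rps27 had 0.22. Rpl22l1 had 0.25 and 0.49. The tissue-restricted paralogs Rpl3l, known from muscle, and Rpl10l, known from testis, had signals of at most 86.6 and 104. On control day 0 they were not well above background, and they were at least 2.66-fold and at least 4.04-fold higher on control day 2. That comparison uses the control day 0 array, which was alone on its slide and had the lowest share of spots well above background (67.4%). Of the list, 2 genes were also past 2-fold higher in knockdown minus control at day 0, and 0 in the knockdown time course. An effect of differentiation on these paralogs cannot be told apart from that array. Rpl39l and Rps4l were well above background on 1 array each.

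Genes of the wider translation machinery were counted from lists. Of 19 elongation factor and other TOP mRNA genes, 19 had a ratio above 0 in the control and 18 in the knockdown time course, with medians of 0.47 and 0.49, close to the 0.50 and 0.48 of the ribosomal proteins. Eef2, which moves the ribosome along the mRNA, had 0.64 and 0.72, Tpt1, the translationally controlled tumour protein, 0.57 and 0.94, and Rack1, a scaffold on the small subunit, 0.50 and 0.52. The list's 1 gene past 2-fold in control cells was Snhg1, a host gene of small nucleolar RNAs, at 1.06, with 0.96 in knockdown cells. Like those of the members, these values move with the scaling.

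The other lists lay nearer the median of all genes. The 23 initiation factors had medians of 0.18 and 0.23 in the time courses, with Eif4a2, an RNA helicase, at 1.49 in knockdown cells and Eif1a at -1.23 for knockdown minus control at day 2. Of 38 ribosome assembly factors, which process rRNA in the nucleolus, 31 were above 0 in the control and 22 in the knockdown time course, with medians of 0.29 and 0.03. Rrp1b, one of them, was at 1.14 in control cells. The 78 mitochondrial ribosomal proteins, whose ribosomes translate the mitochondrial genome, had medians of 0.09 and 0.06, and -0.06 for knockdown minus control at day 2. Mrps6 was at -1.26 in that last comparison and Mrpl54 at -1.11 in the knockdown time course.

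Genes that control TOP mRNAs and ribosome supply had time course medians of -0.11 and 0.17 over the 20 of 21 compared. Mtor, the kinase at the centre of this control, read 1860 on control day 0, 2368 on knockdown day 0, 5268 on control day 2 and 8580 on knockdown day 2, with log2 ratios of 1.86 and 2.45 in the time courses. Both day 2 signals were above both day 0 signals before scaling. Myc, a transcription factor that drives ribosome production, read 4645, 7540, 11111 and 10412, with 1.62 and 1.06. Eif4ebp1, the translation repressor that mTOR inactivates, had -0.89 and -0.59, Larp1 0.09 and 0.26, and Akt1s1, an inhibitor within the mTOR complex, -1.03 for knockdown minus control at day 0. In the reference gene list the time course ratios ran from -0.86 and -0.94 for B2m, a component of MHC class I, to 0.64 and 0.72 for Eef2, with Gapdh at 0.48 and 0.52 and Actb at 0.33 and 0.18.

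The pattern of the members over the 4 arrays was not theirs alone. Their median levels, each minus the mean over the 4 arrays, were -0.33 on control day 0, -0.23 on knockdown day 0, 0.23 on control day 2 and 0.32 on knockdown day 2. Of the members, 67 of 75 stayed within 0.15 of this pattern on every array, and Rpl38, read from its brightest probe, departed from it most, by 0.27. Of 15390 other genes well above background on all arrays, 445 (2.89%) stayed within 0.15 as well. The nearest were Acad11, an acyl-CoA dehydrogenase, with a largest deviation of 0.02, then Gm6607 and Cops3, a subunit of the COP9 signalosome, at 0.02 each, over the 4 arrays.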

How the data were processed

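Total RNA of 4 cultures, 1 per group, was hybridised to 1-colour Agilent arrays and the images were quantified in Feature Extraction 10.7.3.1 by the authors, per the file headers. The deposited intensity of a spot is its linear processed signal, background-subtracted and not normalised between arrays. Per the file headers, multiplicative detrending was applied on 3 arrays and had no effect on knockdown day 0. Groups were taken from the labels. Here, control and outlier spots were left out, repeat spots averaged, and probes named through RefSeq accessions (GRCm38.p6 table; 27656 of 55681 probes). Levels are log2 signal minus each array's log2 75th percentile. A gene entered a comparison if well above background on at least 1 of its arrays, and a value not well above background entered as a bound. With 1 array per group no test was run. Calls are by size (2-fold, and 1.5-fold as an alternative), not significance.

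The members, gene lists and rules were chosen with earlier results of these data known. Named genes were the 3 highest and 3 lowest members per comparison, 9 standing members (Rplp0, Rpl13a, Rps18, Rpl32, Rps29, Rps6, Rpsa, Rplp1 and Rplp2), members with a probe opposed by over 1.5-fold, list genes past 2-fold and the 3 genes nearest in pattern. Other genes named from the role groups and lists were added after their values were seen. Alternatives were the scalings, normexp (offset 50), no detrending, outliers kept, detection on both arrays and the median over probes. Summed-signal scaling, mean reference level and the dimmer probes were added after seeing the data. Python 3.11.15, numpy 2.4.6, pandas 2.3.3, R 4.3.3 and limma 3.58.1 were used, and the calculation was tested on simulated data. Some genes that this rule names are not reported here.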

Additional observations from a re-analysis of the deposited data

Results flagged for a closer look

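The knockdown minus control ratio had opposite signs on the 2 days in 20 of 75 members. In 2 of them both ratios were more than 2 repeat-spot SDs from 0. Rpl38 had a log2 ratio of -0.23 at day 0 and 0.07 at day 2, a difference of 0.2964, the largest upward one among the members. Its other probe read only -0.02 and 0.02. Rps15 had 0.14 at day 0 and -0.08 at day 2, a difference of -0.2166. Larger downward differences were those of Rps3, at -0.27 (0.24 and -0.03), and Rpl4, at -0.22 with both ratios above 0. With 1 array per group the difference was not tested for any of these genes. Over all 75 members this difference had a median of 0.00060 and an SD of 0.11, and 4 lay more than 0.2 from the median. Both day 0 ratios use the control day 0 array, the only one from slide 1, and the signs depend on the scaling.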

How the results depend on the processing

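The SD between members ran from 0.07 to 0.16 with quantile normalization, cyclic loess or the median over probes, against 0.07 to 0.13. Over the dimmer probes (levels 0 to 6) it was 0.28, 0.29, 0.34 and 0.59 in the 4 comparisons. Of the medians, 45 values moved and 35 did not, and of the counts past 2-fold or 1.5-fold 6 moved and 122 did not. Values below are medians in the order knockdown minus control at day 0, the same at day 2, the control time course, the knockdown time course, and day 2 minus day 0 of the knockdown ratio, where those that hardly moved are left out. Without scaling they were 0.15, -0.089, 0.14, -0.11 and -0.24. With the median spot they were -0.70, 0.13, -0.27, 0.55 and 0.83. With the spike-in spots they were 0.30, -0.10, 0.18, -0.24 and -0.40. The 90th percentile gave 0.15, 0.027 (day 2), 0.40 (knockdown time course) and -0.12 (ratio of days). Detected probes gave 0.15 at day 0 and -0.082 for the ratio of days. The reference genes' median level gave -0.25, 0.39, 1.17 (knockdown time course) and 0.64 (ratio of days), and their mean level -0.041, -0.010, 0.30 and 0.31 in the 4 comparisons. Quantile normalization gave 0.00070, -0.00022, 0.036 and 0.051, and cyclic loess 0.00094 at day 2, 0.21, 0.14 and -0.056 for the ratio of days. The summed signal gave 0.0095 at day 2, 0.24 and 0.20. The dimmer probes gave 0.22, 0.14, 0.74, 0.56 and -0.079. The cause was not tested beyond the scaling's own construction.

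Counts past 2-fold moved from 0 to 1 lower with the median spot at day 0, to 71 higher with the reference median level in the knockdown time course, and to 2 and 1 higher in the control and knockdown time courses with the median over all probes of a gene. At 1.5-fold they were 11 and 17. No paired analysis was possible because each group had 1 array, and no replicate could be left out for the same reason. The number of arrays limits the precision: the repeat-spot scatter leaves out culture, labelling and slide. Member signals were far above background, so background correction moved the medians little.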
